A study of Mus musculus with 12 samples.

Results

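The inflammatory CC chemokines Ccl2, Ccl5, Ccl6, Ccl7, Ccl8, Ccl11, Ccl17, Ccl20, Ccl22 and Ccl24 were followed across normal and psoriasis-like mouse skin. They were taken by symbol, as 10 of the 18505 genes in the deposited table, and all 10 passed the filter on low values. Back skin of shaved, young male wild-type BALB/c mice was sequenced on day 10, with 4 samples in each of 3 groups. The control group received petroleum jelly. The IMQ + NS group received imiquimod (IMQ) cream, a Toll-like receptor 7 agonist that raises psoriasis-like lesions, followed by a saline (NS) dressing under gauze and film. The IMQ + BZLF group received the same cream followed by Banzhilian formula (BZLF), a Chinese herbal preparation, under the same dressing. No dressing is described for the control mice, and which dose of BZLF these samples received is not stated. The values are FPKM, the fragments of a gene scaled to its transcript length and to the fragments mapped in the sample, so levels can be set side by side between genes. The number of fragments behind a value is not known.

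Chemokines are small secreted proteins that draw leukocytes along a gradient toward the cells that make them. The CC branch carries a pair of adjacent cysteines and acts through the CC chemokine receptors (CCR). In skin, CCL2, CCL7 and CCL8 draw monocytes, CCL11 and CCL24 draw eosinophils through CCR3, CCL17 and CCL22 draw T cells through CCR4, and CCL20 draws CCR6-bearing dendritic cells and IL-17-producing T cells.

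Most members lie in 3 short stretches of the mouse genome. In GRCm38 (mm10), Ccl2 (82035571 to 82037453), Ccl7 (82045712 to 82047525), Ccl11 (82057823 to 82062955) and Ccl8 (82115185 to 82116799) are on the plus strand of chromosome 11, within 81.2 kb. On the same chromosome Ccl5 (83525778 to 83530518) and Ccl6 (83587882 to 83593087) are on the minus strand within 67.3 kb. Ccl22 (94745590 to 94751699) and Ccl17 (94810453 to 94812036) are on the plus strand of chromosome 8, within 66.4 kb. Ccl20 (83116766 to 83119167, plus strand of chromosome 1) and Ccl24 (135569937 to 135573049, minus strand of chromosome 5) lie alone. All are protein-coding. Ccl2 overlaps Gm17268 and Ccl6 overlaps E230016K23Rik, each on the opposite strand, and both overlapping genes have no row in the table, so the share of their reads in the values of Ccl2 and Ccl6 is uncertain.

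The RefSeq promoter table (GRCm38.p6) held 5 of the 10 members, Ccl6, Ccl8, Ccl17, Ccl20 and Ccl22. The 250 bases before the annotated start are printed for Ccl20, the one member that was higher in IMQ lesions, for Ccl17, and for Ccl8, the most abundant member, each 5′ to 3′ on the gene's strand. Capitals mark matches, on either strand, to a kappa B motif (GGG, any 2 bases, TTTCC), an AP-1 motif (TGANTCA), a STAT6 motif (TTCNNNNGAA) or the motif of other STAT factors (TTCNNNGAA). The regions are chr1:83116516-83116765 (plus strand) for Ccl20, chr8:94810203-94810452 (plus strand) for Ccl17 and chr11:82114935-82115184 (plus strand) for Ccl8.
Ccl20: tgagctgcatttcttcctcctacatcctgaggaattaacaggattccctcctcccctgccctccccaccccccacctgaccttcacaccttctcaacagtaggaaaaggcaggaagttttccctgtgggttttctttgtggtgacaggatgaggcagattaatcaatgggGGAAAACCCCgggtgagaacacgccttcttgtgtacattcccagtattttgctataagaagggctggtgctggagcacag
Ccl17: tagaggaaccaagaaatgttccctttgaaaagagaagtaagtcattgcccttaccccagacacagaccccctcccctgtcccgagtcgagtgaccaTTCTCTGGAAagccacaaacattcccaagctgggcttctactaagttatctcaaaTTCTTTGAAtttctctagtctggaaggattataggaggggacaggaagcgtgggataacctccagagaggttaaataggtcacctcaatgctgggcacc
Ccl8: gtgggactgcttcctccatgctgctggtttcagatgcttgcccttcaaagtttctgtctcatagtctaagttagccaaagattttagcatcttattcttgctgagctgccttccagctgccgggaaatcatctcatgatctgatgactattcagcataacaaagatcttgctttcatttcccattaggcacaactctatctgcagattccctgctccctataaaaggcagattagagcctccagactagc
The kappa B motif occurred once in Ccl20, as GGAAAACCCC on the opposite strand from base 80 to base 71 before the start, and in 1.41% of the 32851 promoters of the same length. Ccl17 held a STAT6 match from base 154 to base 145 and another STAT match from base 99 to base 91 before the start, motifs found in 5.85% and 7.02% of promoters. No AP-1 match (6.75% of promoters) was found in the 5, and no match of any of the 4 motifs in Ccl6, Ccl8 or Ccl22. These are matches of letters and not measured binding.

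The total FPKM of a sample was 444660 to 506622, and 16649 to 16941 genes had a value above 0. All 6 dermal fibroblast and all 7 keratinocyte markers exceeded 0.1 FPKM in every sample. IMQ + BZLF replicate 1 held the lowest value of its group in 8 of the 10 members, all but Ccl5 and Ccl17, so results that turn on it are also given without it. Its summed FPKM was also the lowest of its group for monocyte and macrophage markers (680.3), T cell markers (7.09), keratinocyte markers (3395) and fibroblast markers (4286). Control replicate 2 had less skeletal muscle RNA than the other controls, 3392 against 7660.2 to 8337 FPKM summed over 7 genes.

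Normal skin, rather than the lesion, held most of the CC chemokine RNA. The summed FPKM of the 10 members was 1066 ± 118 (SD, n = 4) in control samples, 244 ± 70.1 in IMQ + NS samples and 272 ± 72.2 in IMQ + BZLF samples. The lowest control sample (918) lay above the highest sample of either treated group (316 and 317). Ccl8 made up 77.6% ± 3.74 of this sum in control samples, and 70.04% ± 3.84 and 76.0% ± 3.11 after IMQ + NS and IMQ + BZLF, and Ccl6 held 11.2% ± 2.54, 16.8% ± 1.14 and 13.7% ± 1.22. In each group every sample's Ccl8 lay above every sample's Ccl6, and Ccl6 above the next member. Below these, neighbouring members overlapped in most steps of the order. In control samples Ccl7, Ccl24, Ccl2 and Ccl11 followed with each neighbour overlapping the next, then Ccl5, Ccl22 and Ccl17 without overlap, and Ccl17 and Ccl20 shared the lowest place. In IMQ + NS samples the 7 members from Ccl11 down to Ccl20 overlapped each neighbour, and Ccl17 lay below all of them. In IMQ + BZLF samples the 8 members from Ccl11 down to Ccl17 overlapped each neighbour, with Ccl24 in the place after Ccl11.

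**Figure D1:**
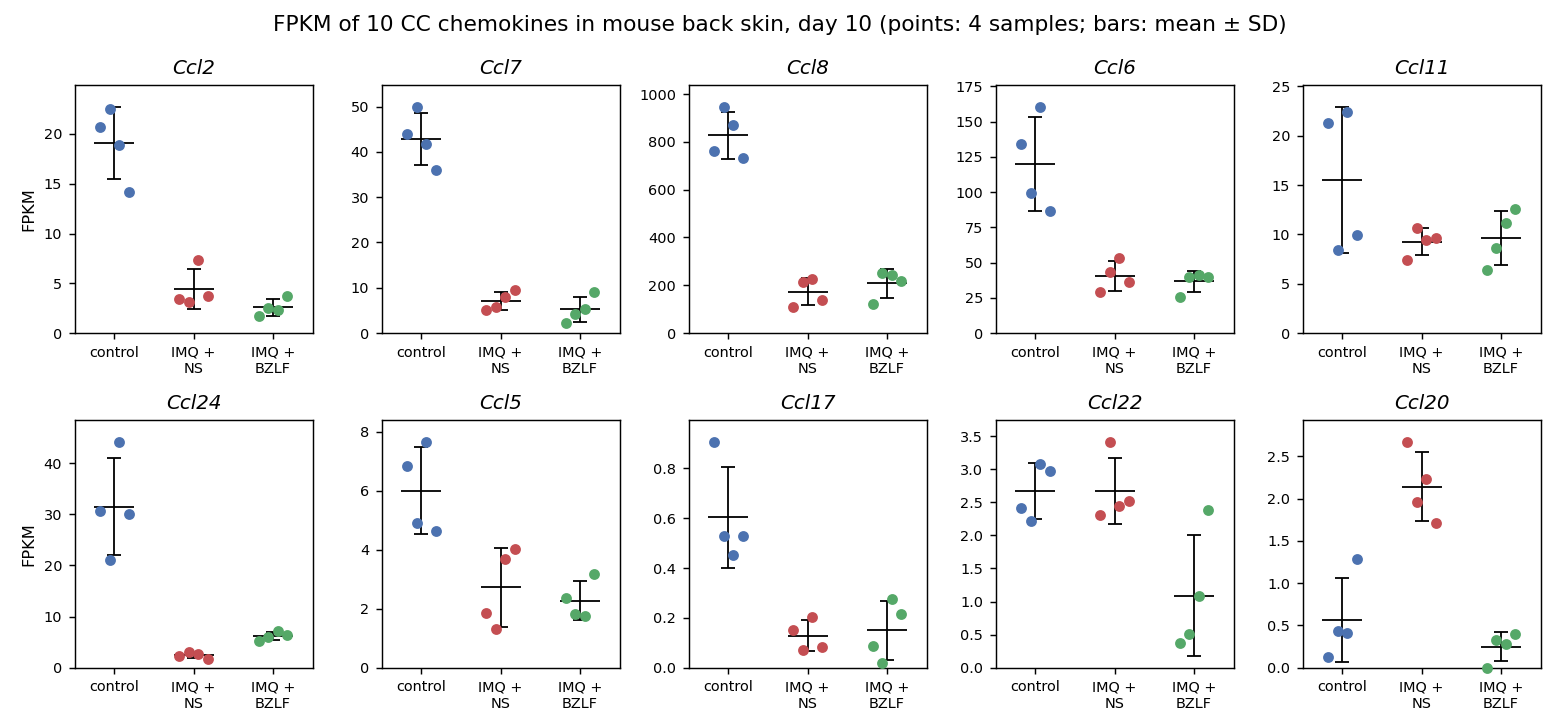
FPKM of each member (y axis, linear from 0, a separate scale per gene) in the 4 control, 4 IMQ + NS and 4 IMQ + BZLF samples, with points for samples and bars for mean ± SD. In Ccl2, Ccl7, Ccl8, Ccl6, Ccl24, Ccl5 and Ccl17 all 4 control points lie above all 8 treated points, whereas Ccl20 is highest in IMQ + NS samples.

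The 4 IMQ + NS samples were set against the 4 control samples, by limma on log2(FPKM + 0.1). The lesions also had a saline dressing that is not described for the controls, so imiquimod and dressing cannot be told apart. A differentially expressed gene (DEG) had a Benjamini-Hochberg adjusted p below 0.05 over the 15288 genes tested and differed by more than 1 on the log2 scale. Of the 10 members, 7 were DEGs with a lower level in the lesions, a direction that 11% of all genes took, 1 was a DEG with a higher level (11.4% of all genes), and 2 were not called. The groups did not overlap in 8 members, as in 49.4% of all genes. The median log2 fold change was -1.59 over the members and 0.053 over all genes. An exact two-sided permutation test of 4 against 4 cannot give a p below 0.0286, the value that each of these 8 members reached. The labels number the samples without naming the animals, so all p-values measure the spread between these samples. In whole skin, fewer cells that make a chemokine and less RNA per cell cannot be told apart.

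The monocyte attractants fell together. Ccl2, the classical ligand of CCR2, had 20.7, 22.5, 18.9 and 14.2 FPKM in control samples and 3.46, 3.11, 7.37 and 3.74 in IMQ + NS samples. All 4 control samples lay well above the lesion samples, of which replicate 3 was the highest. The log2 fold change of Ccl2 was -2.15 (standard error 0.27, adjusted p = 2.46e-04 from limma). Ccl7, another CCR2 ligand, had 44.02, 49.8, 41.6 and 36.0 FPKM in control and 4.999, 5.74, 8.01 and 9.46 in IMQ + NS samples, and its log2 fold change was -2.62 (SE 0.20, adjusted p = 1.97e-05). Ccl8, which in the mouse also engages CCR8, had 763, 944, 870.1 and 731 FPKM in control samples and 110, 214, 227 and 139 in IMQ + NS samples. Its mean was 4.80-fold higher in control skin, and on the log2 scale the change was -2.32 (standard error 0.23, adjusted p = 7.12e-05). Ccl6, a macrophage-derived CCR1 ligand, had 134, 99.4, 160.0 and 86.9 FPKM in control and 28.9, 43.3, 53.2 and 36.3 in IMQ + NS samples, which is -1.56 on the log2 scale (SE 0.23, adjusted p = 6.34e-04). For all 4 genes every lesion sample lay below every control sample.

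The 2 eosinophil attractants differed from each other. Ccl24 (eotaxin-2) showed the largest fold change of the 10 members, with 30.7, 21.0, 44.1 and 30.03 FPKM in control samples and 2.36, 3.01, 2.67 and 1.75 in IMQ + NS samples. The control mean was 12.9-fold higher, and the log2 fold change was -3.61 (standard error 0.24, adjusted p = 8.13e-06 from limma). Ccl11 (eotaxin-1) had 21.3, 8.44, 22.4 and 9.89 FPKM in control and 7.37, 10.7, 9.43 and 9.62 in IMQ + NS samples. Replicates 2 and 4 of the control group lay among the lesion samples and replicates 1 and 3 above them, and Ccl11 was not called (log2 fold change -0.61, 95% interval -1.35 to 0.12, adjusted p = 0.134). Without control replicate 2, Ccl11 was at -0.86 with limma's adjusted p = 0.0242, still under the fold threshold. On chromosome 11 it lies between Ccl7 and Ccl8.

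The T cell attractants split 3 ways. Ccl5 (RANTES), a ligand of CCR1 and CCR3 made by T cells and myeloid cells, had 6.82, 4.89, 7.64 and 4.65 FPKM in control and 1.87, 1.33, 3.69 and 4.03 in IMQ + NS samples. Its log2 fold change was -1.21 (SE 0.35, limma's adjusted p = 0.0171), and without IMQ + NS replicate 2 it was -0.93 and no longer past the fold threshold. Ccl17 (TARC) was near the floor throughout, at 0.905, 0.529, 0.453 and 0.527 FPKM in control and 0.153, 0.0713, 0.204 and 0.0850 in IMQ + NS samples, which is -1.62 on the log2 scale (SE 0.27, adjusted p = 0.00104). With 1 in place of 0.1 added before the logarithm, Ccl17 was at -0.50 and Ccl5 at -0.96, both below the fold threshold. Ccl22 (MDC), the other CCR4 ligand, had 2.42, 2.21, 3.08 and 2.97 FPKM in control and 2.31, 3.41, 2.44 and 2.52 in IMQ + NS samples. Its groups overlapped fully, with a log2 fold change of -0.0035 (95% interval -0.38 to 0.37, adjusted p = 0.986).
Ccl20, the CCR6 ligand known as an IL-17-induced product of keratinocytes, was the one member that rose. It had 0.125, 0.437, 0.414 and 1.28 FPKM in control samples and 2.67, 1.96, 2.23 and 1.71 in IMQ + NS samples. The highest control sample, replicate 4, stood well above the other 3 controls but below every lesion sample. The log2 fold change was 2.03 (standard error 0.47, adjusted p = 0.00628 from limma). Its promoter, printed above, is the one of the 5 with a kappa B match. Ccl2, Ccl5, Ccl7, Ccl11 and Ccl24 had no promoter sequence to search, and the part of the motif in the rise was not tested.

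**Figure D2:**
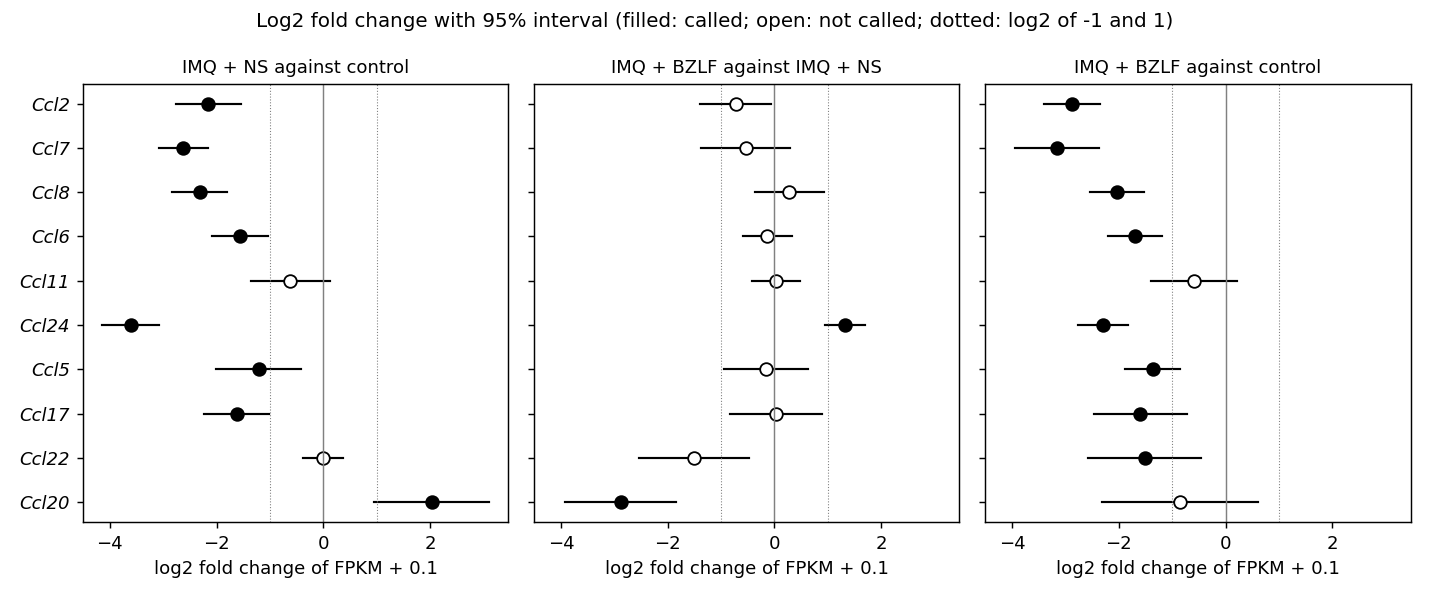
Log2 fold change of FPKM + 0.1 (x axis) with its 95% interval for each member (y axis) in the 3 comparisons. Filled points are DEGs, open points are not, the solid line is 0 and dotted lines are -1 and 1. The left panel holds 7 filled points below -1 and 1 above 1, and the middle panel 2 filled points, Ccl24 at 1.32 and Ccl20 at -2.88.

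The effect of BZLF on the lesion was read from the 4 IMQ + BZLF against the 4 IMQ + NS samples. Few members moved. Ccl20 was a DEG with a lower level (2.2% of all genes) and Ccl24 a DEG with a higher level (0.321% of all genes), and the other 8 were not called. The groups did not overlap in these 2 members, against 15.2% of all genes. The median log2 fold change was -0.14 over the members and -0.023 over all genes.
Ccl20 was listed at 0 in IMQ + BZLF replicate 1 and had 0.325, 0.284 and 0.396 FPKM in the others, against 1.71 to 2.67 in IMQ + NS samples. The log2 fold change was -2.88 (SE 0.46, limma's adjusted p = 0.00946, exact permutation p = 0.0286), and it depended on the constant because of the 0. With 0.01 added, the log2 fold change was -3.91 with an adjusted p of 0.0634. Without replicate 1 it was -2.36 and Ccl20 was still a DEG. Ccl24 had 5.22, 6.02, 7.15 and 6.34 FPKM in IMQ + BZLF samples, all above the IMQ + NS samples. Its mean was 2.53-fold higher than in IMQ + NS samples, or 1.32 higher on the log2 scale (SE 0.16, adjusted p = 0.00354). Every IMQ + BZLF sample remained below the lowest control sample (21.0).
Ccl22 was not called between the treated groups. It had 0.370, 0.517, 1.09 and 2.39 FPKM in IMQ + BZLF samples, so replicates 1 to 3 lay below every IMQ + NS sample and replicate 4 lay within that group. The log2 fold change was -1.51 (95% interval -2.53 to -0.48, adjusted p = 0.0871 from limma), and without IMQ + BZLF replicate 4 it was -1.96 with an adjusted p of 0.0132.
The remaining members overlapped between the 2 groups. Ccl2 had 1.73, 2.49, 2.30 and 3.76 FPKM after BZLF, with a log2 fold change of -0.73 (95% interval -1.40 to -0.061, adjusted p = 0.185 from limma). Ccl7 had 2.28 to 8.96 FPKM after BZLF (log2 fold change -0.54, 95% interval -1.37 to 0.30) and Ccl8 had 121 to 253 FPKM (0.28, -0.37 to 0.93). For Ccl6 the interval was -0.60 to 0.34, for Ccl11 -0.43 to 0.48, for Ccl5 -0.94 to 0.63 and for Ccl17 -0.84 to 0.90. The intervals of Ccl6, Ccl8, Ccl11 and Ccl5 leave out a log2 difference of 1 in either direction, while those of Ccl2 and Ccl7 reach below -1. The interval of Ccl17 also leaves it out, but its FPKM was close to the 0.1 added before the logarithm (0.0178 to 0.277 after BZLF). The constant narrows that interval, so a difference of this size in Ccl17 is not excluded.

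IMQ + BZLF samples were also set against the control samples, which are the same 4 as in the first comparison. Here 8 of the 10 members were DEGs with a lower level, against 10.1% of all genes, and 0 were higher by limma, adjusted or at an unadjusted p under 0.05 (9.65% of all genes were higher). The groups did not overlap in 7 members, as in 47.5% of all genes. The median was -1.64 over the members and -0.018 over all genes. Ccl7 was at -3.16 (standard error 0.35, adjusted p = 2.13e-04) and Ccl2 at -2.88 (standard error 0.23, adjusted p = 4.06e-05), followed by Ccl24 at -2.29, Ccl8 at -2.04, Ccl6 at -1.69, Ccl17 at -1.59 and Ccl5 at -1.37. With 1 added before the logarithm 6 members were lower DEGs, as Ccl17 (-0.48) and Ccl22 (-0.90) no longer passed the fold threshold. Ccl22, at -1.51 with an adjusted p of 0.0237, overlapped the controls through IMQ + BZLF replicate 4. Leaving out any of 4 samples raised its adjusted p above 0.05, to 0.0570 and 0.0645 without IMQ + BZLF replicates 1 and 2, and to 0.0591 and 0.0566 without control replicates 3 and 4. Ccl20 (-0.85, 95% interval -2.31 to 0.61) and Ccl11 (-0.59, -1.40 to 0.22) were not called.

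The 6 CCR genes described here, Ccr1, Ccr2, Ccr3, Ccr4, Ccr6 and Ccr8, held no DEG in any of the 3 comparisons by limma. At an unadjusted p under 0.05 with no fold limit, 1 of the 6 (Ccr4) differed between IMQ + NS and control samples and 2 (Ccr1 and Ccr2) between the treated groups. The share of all genes under this rule was not counted. The groups did not overlap in 1 of the 6 in each of these comparisons, against 49.4% and 15.2% of all genes. In IMQ + NS against control samples the median log2 fold change over the 6 was 0.31. Ccr4, the receptor of Ccl17 and Ccl22, had 0.473 ± 0.108 FPKM (SD, n = 4) in control and 0.278 ± 0.0289 in IMQ + NS samples, a difference under the fold limit (log2 fold change -0.58, limma's adjusted p = 0.0272). Ccr2, the receptor of Ccl2 and Ccl7 on monocytes, had 9.20 ± 1.42 FPKM (SD, n = 4) in control and 11.6 ± 3.21 in IMQ + NS samples and was not called (adjusted p = 0.211 by limma). Between the treated groups all 6 fold changes were below 0, with a median of -0.57. Ccr2 had 6.41 ± 1.43 FPKM after BZLF and did not pass the test (-0.84, adjusted p = 0.0581), and Ccr1 had 5.35 ± 2.56 and 1.82 ± 0.527 FPKM (-1.41, adjusted p = 0.0508). Against control samples, IMQ + BZLF samples had lower Ccr2 (-0.53, adjusted p = 0.0391) and Ccr4 (-0.67, adjusted p = 0.0368), both under the fold limit. Ccr6, the receptor of Ccl20, had 0.158 to 0.926 FPKM over all 12 samples.
Decoy receptors bind chemokines without signalling for migration. Ackr2, which takes up inflammatory CC chemokines, had 4.85, 2.499, 4.26 and 3.41 FPKM in control and 0.596, 0.890, 1.07 and 0.833 in IMQ + NS samples (log2 fold change -2.01, standard error 0.23, limma's adjusted p = 1.85e-04). Ackr2 was not called after BZLF (1.26 ± 0.413 FPKM, log2 fold change 0.48, adjusted p = 0.328). Ccrl2, listed with the decoy receptors, was a DEG after BZLF, with 1.40, 1.17, 1.77 and 1.64 FPKM in IMQ + NS and 0.542, 0.726, 0.813 and 0.539 in IMQ + BZLF samples (-1.08, standard error 0.18, adjusted p = 0.00983 by limma). Whether its product takes up CC chemokines was not examined. Ackr1 was not analysed here.

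**Figure D3:**
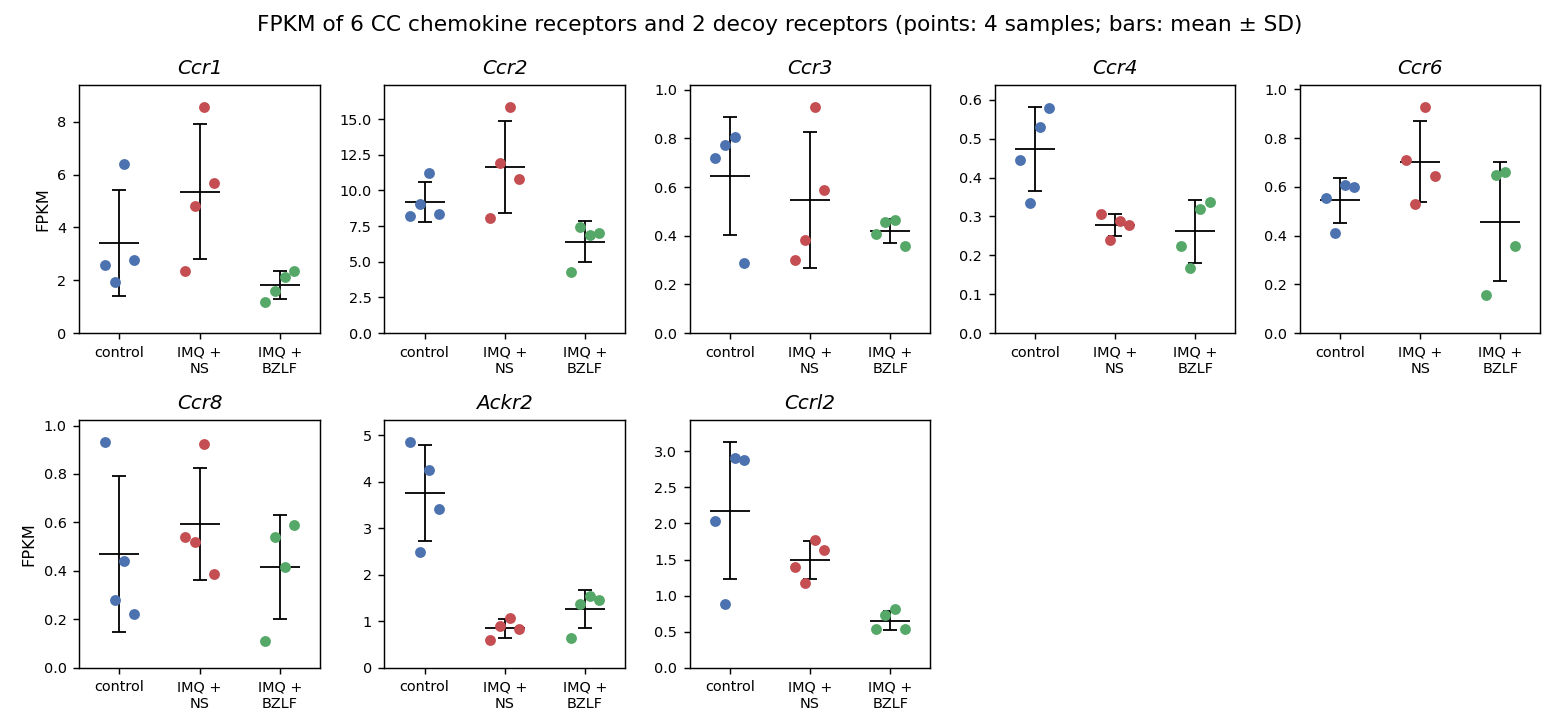
FPKM of 6 CC chemokine receptors and of Ackr2 and Ccrl2, listed as decoy receptors (y axis, linear from 0, a separate scale per gene), in the 3 groups, with points for samples and bars for mean ± SD. Ccr2 lies between 4.30 and 7.43 in IMQ + BZLF samples, below all IMQ + NS samples, and Ackr2 lies highest in control samples.

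Among 10 further CC chemokines, those next to the members on chromosome 11 moved in both directions. Ccl12 (82101845 to 82103400, between Ccl11 and Ccl8) had 26.2 ± 5.54 FPKM (SD, n = 4) in control and 4.10 ± 0.904 in IMQ + NS samples (log2 fold change -2.65, adjusted p = 1.86e-05 from limma). Ccl9 (83572919 to 83578636, between Ccl5 and Ccl6) had 38.1 ± 7.38 and 10.7 ± 1.58 FPKM (-1.82, adjusted p = 3.61e-05). Ccl3 and Ccl4, known as MIP-1 alpha and beta (83647844 to 83649355 and 83662584 to 83664683), rose.
Ccl3 had 0.982, 0.601, 1.13 and 0.880 FPKM in control, 1.45, 1.92, 6.26 and 1.80 in IMQ + NS and 0.0978, 0.264, 0.0321 and 0.433 in IMQ + BZLF samples, with log2 fold changes of 1.34 (adjusted p = 0.0244) and -3.22 (adjusted p = 0.0107) in the first 2 comparisons. Ccl4 had 0.152 to 1.123, 1.86 to 4.18 and 0 to 0.481 FPKM, with log2 fold changes of 2.15 (adjusted p = 0.00490) and -3.60 (adjusted p = 0.00920). For Ccl3 and Ccl4, as for Ccl20, the lowest IMQ + NS sample exceeded the highest sample of either other group. Of the 10 genes, 2 were higher and 5 lower DEGs in IMQ + NS against control samples, the others among the lower being Ccl19, Ccl21a and Ccl27a. After BZLF 2 were lower DEGs and 0 were higher by limma, with 1, Ccl27a, higher at an unadjusted p under 0.05. Reads of Ccl21a and Ccl27a can be shared with near-identical copies, so their values are uncertain.

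Marker lists of other cells were read beside these results. The 12 monocyte and macrophage markers, all above 0.1 FPKM in every sample, summed to 1620.2 to 2391 FPKM in control, 1008 to 1557 in IMQ + NS and 680.3 to 1083 in IMQ + BZLF samples. Lyz2 was the largest part of this sum, with a mean of 1091 FPKM in control samples. Cd163 was the single DEG of this list in IMQ + NS against control samples (lower, log2 fold change -1.40), where the list median was -0.54. Of the 12 fold changes there, 11 were below 0 and 1, that of Adgre1, was above 0 (0.70, not called). Adgre1 had 22.6 to 33.3 FPKM in control and 43.7 to 52.7 in IMQ + NS samples, without overlap. After BZLF Adgre1 was the single DEG (lower, -1.36). Eosinophil markers were scarce. Ear2 made up most of their sum, which was 11.4 to 21.8 FPKM in control and 2.999 to 5.11 in IMQ + NS samples and 1.75 to 10.6 in IMQ + BZLF samples. Ear2 was lower in IMQ + NS than in control samples (log2 fold change -2.45). Of the 5 eosinophil markers tested there, 3 had fold changes above 0 and 2 below, with a median of 0.56. The sum therefore follows Ear2 and not the list as a whole. Ear1 and Ear6 were scarce, with means of 0.0175 and 0.0901 FPKM in control and 0.245 and 0.219 in IMQ + NS samples. Prg2 was listed at 0 in all 4 controls and at 0.159 to 0.661 in IMQ + NS samples. Epx, which encodes eosinophil peroxidase, was at most 0.1405 FPKM in any sample. T cell markers (8 of 12 in the table) summed to 16.1 to 22.97 FPKM in control, 11.7 to 22.7 in IMQ + NS and 7.09 to 14.5 in IMQ + BZLF samples. None of the 7 T cell markers tested was a DEG in the lesions by limma, and 4 of the 7 had an unadjusted p under 0.05. The share of all genes under that p was not counted. The groups did not overlap in 2 of the 7, against 49.4% of all genes. These 2 went in opposite directions. Cd4 was higher in the lesions (1.57 to 2.94 against 0.862 to 1.41 FPKM in control samples) and Cd2 lower (1.05 to 2.13 against 2.49 to 3.85). Dendritic and Langerhans cell markers summed to 115 to 139 FPKM over all samples, with members that moved in opposite directions. In IMQ + NS against control samples Cd209a (log2 fold change -3.45), Clec9a (-1.28) and Xcr1 (-1.03) were lower DEGs and Epcam, which keratinocytes also express, a higher one (1.097). After BZLF Itgax (-1.43) and Ccr7 (-1.49) were lower DEGs.
Mast cell markers summed to 200.3 to 339 FPKM in control, 139 to 200 in IMQ + NS and 103 to 192 in IMQ + BZLF samples. Of the 7 tested, Cpa3 (-1.06) and Cma1 (-1.01) were lower DEGs in the lesions, while Fcer1a, a subunit of the IgE receptor, was a higher DEG, with 0.301 ± 0.124 FPKM (SD, n = 4) in control and 4.48 ± 1.17 in IMQ + NS samples (3.54, adjusted p = 2.63e-05 from limma).
Neutrophil markers summed to 55.6 to 93.0 FPKM in controls, 3148 to 9928 after IMQ + NS and 69.7 to 94.6 after IMQ + BZLF. They were thus highest in the group where Ccl20, Ccl3 and Ccl4 were highest, led there by S100a8 and S100a9, which keratinocytes also express. Of the 10, 9 were higher DEGs in the lesions and Il1r2 was a lower one. Ly6g, among these 9, passed the filter on low values only through the IMQ + NS group, so its call carries no weight. Il1r2 had the largest mean of the list in controls, 33.9 FPKM, against 7.76 and 9.12 after IMQ + NS and IMQ + BZLF. Against controls, 2 of the 10 were higher and 2 lower DEGs after IMQ + BZLF. Mean S100a8 was 45.8 FPKM after IMQ + BZLF against 14.7 in controls. The similar sums of these 2 groups therefore do not show that each marker returned to its control level. The sum of the fibroblast markers was 13085 to 18643 FPKM in control, 3681 to 4890.0 in IMQ + NS and 4286 to 8109 in IMQ + BZLF samples. That of skeletal muscle markers was 3392 to 8337, 626 to 1539 and 1107 to 1476 FPKM, and that of adipocyte markers 2084 to 4198, 1256 to 1826 and 1696 to 1913 FPKM. Keratinocyte markers summed to 2232 to 3193 FPKM in control, 7377 to 11138 in IMQ + NS and 3395 to 4796 in IMQ + BZLF samples. Of the 7, 6 were higher DEGs in the lesions, and Krt14, Krt6a and Krt16 were lower DEGs after BZLF, when Ccl20 was lower too. The part of these lists in the chemokine results was not tested.

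**Figure D4:**
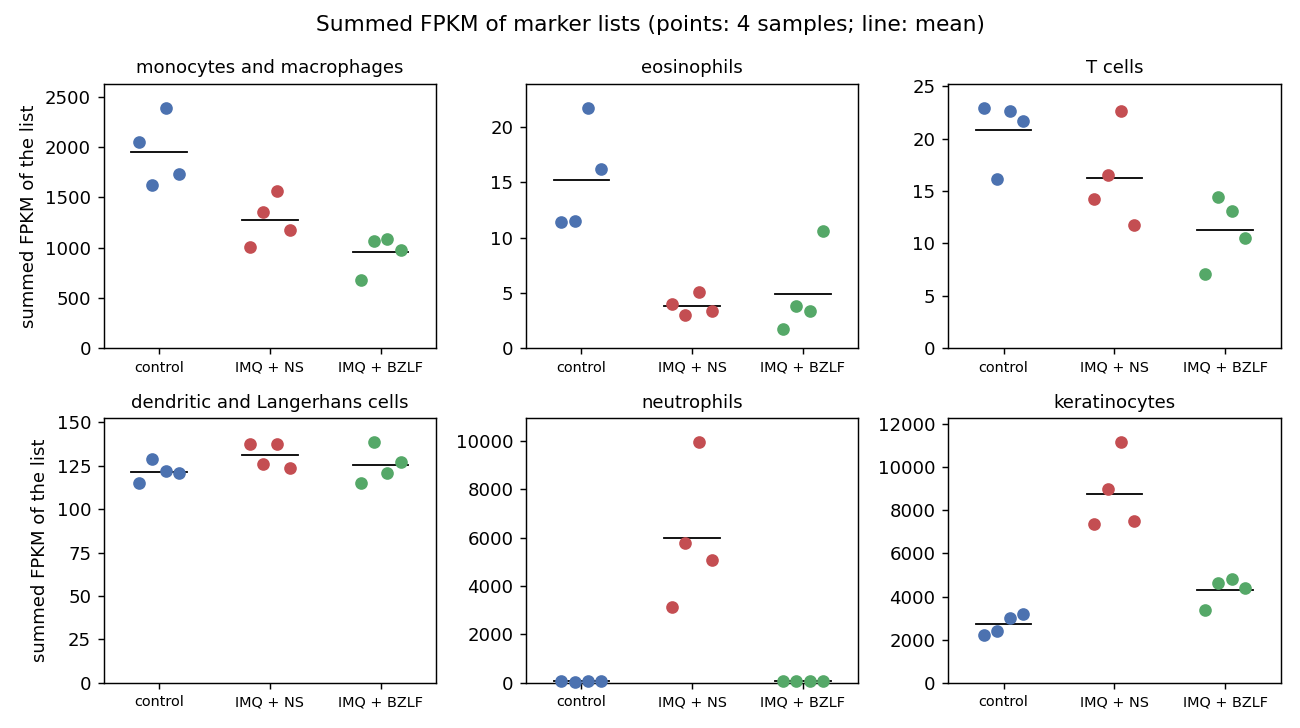
Summed FPKM (y axis, linear from 0, a separate scale per list) of 6 marker lists in the 3 groups, with points for samples and a line for the mean. Monocyte and macrophage and eosinophil sums are highest in control samples, and neutrophil and keratinocyte sums in IMQ + NS samples. The eosinophil sum is mostly Ear2.

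Likeness was measured by Pearson's r over the 12 samples on log2(FPKM + 0.1), among the genes whose mean FPKM reached 1. The samples form 3 groups, so r mostly reflects the differences between groups. Ccl24 was most like Igfbp6 (r = 0.987), Cul9 (0.985) and Cd34 (0.985). Igfbp6, an insulin-like growth factor binding protein, had mean FPKM of 292, 31.9 and 61.1 in control, IMQ + NS and IMQ + BZLF samples, the same order as Ccl24. Ccl8 was most like Mrpl30 (0.982), Pf4 (0.982) and Klhl4 (0.978), and Ccl6 most like F13a1 (0.988), Arsb (0.984) and Xaf1 (0.980). F13a1, the coagulation factor XIII A chain, is a marker of resident dermal macrophages and had 74.5, 32.7 and 32.3 FPKM in mean. Ccl5 was most like Oasl2 (0.968) and Rtp4 (0.953), which are interferon-induced. Ccl20 was most like Aox4 (0.963), Rab31 (0.948) and Atp6v0a4 (0.944).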

How the data were processed

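RNA-seq of 12 back skin samples was analysed, 4 each of control, IMQ + NS and IMQ + BZLF, grouped by the sample titles. Per the study's methods, the authors aligned reads with Bowtie2 to mRNA and lncRNA transcripts and computed FPKM with eXpress, whereas the submitters' processing notes name fastp, HISAT2, HTSeq, R 3.2.0 and mm10. The labels and the methods also name different extraction reagents and library kits. The authors deposited FPKM values, 1 per gene and sample, without a log scale. Counts were not analysed here, and 0 columns belonged to no sample. Of the 18505 symbols, 18369 were found in RefSeq.

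The 15288 genes whose mean FPKM reached 0.1 were tested on log2(FPKM + 0.1) with limma 3.58.1 in R 4.3.3 (moderated variances with a trend), for each pair of groups, with Benjamini-Hochberg adjustment over all genes tested. A fold change on this scale is understated for low genes. Permutation tests were exact and two-sided. The scripts were tested on simulated data. Python 3.11.15, pandas 2.3.3 and matplotlib 3.10.9 were also used. All members, the called genes of the other lists, the receptors and up to 3 genes most like a member were named by rule, and some genes are not reported here. The members and lists were chosen with earlier results of these data known. Epx was singled out after their values were seen. Alternatives tried were 0.01 or 1 as the constant, no filter or a minimum mean of 1, 3 other scalings, all 12 samples in one fit, other variance models, the replicate number as a block, other call rules and each sample left out.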

Additional observations from a re-analysis of the deposited data

Results flagged for a closer look

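In 54 groups of 4 (the 10 members, 6 receptors and 2 decoy receptors, in 3 groups each), 3 had a sample farther from the others than Dixon's 95% critical value for 4 samples allows. Chance alone gives about 1 in 20. Ccl2 was 7.37 FPKM in IMQ + NS replicate 3 against 3.11 to 3.74 in the other 3. Ccl6 was 25.5 FPKM in IMQ + BZLF replicate 1 against 40.0 to 41.4 in the others. Ccl17 was 0.905 FPKM in control replicate 1 against 0.453 to 0.529 in the others.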

How the results depend on the processing

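The number of members called lower in IMQ + NS against control samples was 7, and 6 to 7 with each sample left out. It was 5 with a constant of 1 and 6 with a mean FPKM of at least 1. The number called higher was 1, and 0 with a mean FPKM of at least 1, where Ccl17 and Ccl20 were not tested. After BZLF, 1 member was lower, against 0 with a constant of 0.01, 0 with a mean FPKM of at least 1, 2 at an unadjusted p below 0.05 and 1 to 2 with each sample left out. With the replicate number as a block, the counts stayed at 7 and 1, 1 and 1, and 8 and 0 members in the 3 comparisons. Same-numbered samples deviated together (r above 0.1) in 7 of 12 pairs and 6 matched their own number best. The numbers were not taken as pairs because no label says that a number marks a shared litter, batch or day. Whether same-numbered samples share one is not known. Of 564 refits of single members, 536 kept direction and call, 10 lost the call, 1 gained it and 17 changed sign. All 17 were of members not called. Ccl17 after BZLF was -0.15 with a constant of 0.01. With each sample left out, Ccl22 ranged from -0.12 to 0.067 in IMQ + NS against control, and after BZLF Ccl5 ranged from -0.44 to 0.073, Ccl6 from -0.28 to 0.037, Ccl11 from -0.11 to 0.21 and Ccl17 from -0.22 to 0.34. Rescaling the samples to equal sums moved the median log2 fold change of all genes in IMQ + NS against control samples from 0.053 to -0.074 and changed no member's call. Without depth per value, the counting error of low genes such as Ccl17 and Ccl20 could not be computed.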

Other observations

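Cytokines known to induce CC chemokines were fixed as a list of 10, of which 6 passed the filter on low values. Il17a, which induces Ccl20 in keratinocytes, was listed at 0 in every control and IMQ + BZLF sample and had 0.573, 0.402, 1.08 and 0.809 FPKM in IMQ + NS samples. It passed the filter only through the IMQ + NS group, so no test of it is given. Il1b had 5.67 ± 0.569 FPKM (SD, n = 4) in control, 11.98, 17.2, 55.1 and 29.7 in the 4 IMQ + NS samples and 2.07 ± 0.666 in IMQ + BZLF samples, with log2 fold changes of 2.07 (adjusted p = 0.00267) and -3.53 (adjusted p = 0.00348).
Tnf did not differ past the threshold between IMQ + NS (1.66 ± 0.446 FPKM) and control samples (2.35 ± 0.828, adjusted p = 0.187) and was 0.386 ± 0.215 FPKM after BZLF (log2 fold change -1.93, adjusted p = 0.0108). Tslp, a keratinocyte cytokine that acts on dendritic cells and induces Ccl17 and Ccl22 in them, had 4.55 ± 1.15 FPKM in control and 1.66 ± 0.713 in IMQ + NS samples (-1.49, adjusted p = 0.00665) and was not called after BZLF (adjusted p = 0.801). Ifng, Il13, Il22 and Csf2 were not tested. Il4 and Il6 were called in no comparison.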
